A study of Mus musculus with 24 samples.

Results

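The results concern 31 genes of cholesterol synthesis and its control by SREBP-2, read through the H3K27ac regions annotated to them in mouse liver. Members were all regions of the deposited table whose gene name was 1 of the 31, whatever their values. They came to 115 of 63686 regions and named 28 of the 31 genes, and no region in the table used here named Hmgcs1, Mvd or Ggps1. By role, 9 genes belonged to the mevalonate arm (13 regions), 12 to the sterol arm (45 regions), 4 to SREBP-2 regulation (28 regions) and 6 to sterol transport and esterification (29 regions).

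H3K27ac, acetylation of lysine 27 on histone H3, was measured by chromatin immunoprecipitation and sequencing of frozen whole liver. All mice were male C57BL/6J animals aged 9 weeks carrying the floxed allele Gata4 fl/fl, and each had received an AAV8 vector at 8 weeks, 7 days before death. Knockout mice received AAV8-Tbg-Cre, whose Tbg promoter is active in hepatocytes, and control mice the empty AAV8, so other liver cells were not targeted. The labels do not state which exons are floxed, and H3K27ac values do not check the deletion. Fasted mice had gone 12 h without food. Refed mice had fasted 12 h and then eaten a high-sucrose diet (69% sucrose and 10% fat) for 12 h. Death fell between 9 and 10 in the morning in both feeding states, so the fast of the refed mice came by day and that of the fasted mice by night. Each of the 4 groups (control fasted, control refed, knockout fasted, knockout refed) held 3 libraries, numbered here in accession order. Library names within a group share 1 number that differs between groups, and what it stands for cannot be told apart from the group. The labels do not state whether libraries came from separate animals, so p-values measure only the spread between these libraries.

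Cholesterol is built from acetyl-CoA, first along the mevalonate arm to farnesyl pyrophosphate and then, through squalene and lanosterol, along the sterol arm. SREBP-2, encoded by Srebf2, activates most genes of the route: SCAP escorts it from the endoplasmic reticulum when sterols are low, and the INSIG proteins hold the pair back when sterols are high. Liver makes cholesterol for bile acids, lipoproteins and its own membranes, and H3K27ac marks its active promoters and enhancers.

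SREBP-2 binds sterol regulatory elements in promoters, usually beside NF-Y, which binds CCAAT, and Sp1, which binds GGGCGG. RefSeq promoter windows (GRCm38.p6, 250 bases before to 50 after a start site) were matched for 24 of the 31 genes. The letters TCACNCCA, a core of the sterol regulatory element, stood on either strand in the windows of 3 members (12.5%; 4.97% of all 27025 genes), namely Hmgcs1, Msmo1 and Srebf2. CCAAT stood in 22 of 24 (91.7%; 41.1% of all genes), the exceptions being Acat2 and Scap. GGGCGG stood in 22 of 24 (91.7%; 38.2% of all genes, but 67.5% of the 9098 genes whose start site lay inside an H3K27ac region of the table). The motif of GATA factors, searched as AGATAA, stood in 3 of 24 (12.5%; 12.7% of all genes), those of Insig2, Lbr and Npc2. A match is a description of the letters and not a site of binding. The 200 bases before the start sites of 5 members are shown, chosen with their values known. Msmo1 and Srebf2 hold TCACNCCA before a start site whose region did not pass the refeeding test. Idi1, Cyp51 and Nsdhl have none in their windows while their regions passed it. As they were picked by outcome, the 5 show no relation between these letters and refeeding. Ebp, Soat1 and Scap also lacked TCACNCCA, and their start-site regions did not pass. Less strict forms of the sterol regulatory element were not searched. No window was matched for Acat1, Fdps, Fdft1, Sqle, Stard4, Npc1 or Soat2. Capitals mark TCACNCCA and CCAAT on either strand (CCAAT on the opposite strand reads ATTGG). Msmo1 lies at chr8:64733579-64733778, minus strand, Srebf2 at chr15:82147069-82147268, plus strand, Idi1 at chr13:8885406-8885605, plus strand, Cyp51 at chr5:4104698-4104897, minus strand, and Nsdhl at chrX:72918321-72918520, plus strand.
Msmo1: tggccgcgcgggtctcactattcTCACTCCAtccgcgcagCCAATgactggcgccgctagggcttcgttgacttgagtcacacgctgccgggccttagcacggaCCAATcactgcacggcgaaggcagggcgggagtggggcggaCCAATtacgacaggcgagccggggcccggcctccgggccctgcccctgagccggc
Srebf2: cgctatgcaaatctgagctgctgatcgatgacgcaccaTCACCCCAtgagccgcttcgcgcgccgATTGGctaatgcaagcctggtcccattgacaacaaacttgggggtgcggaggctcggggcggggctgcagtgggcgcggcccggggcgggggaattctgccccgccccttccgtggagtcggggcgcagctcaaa
Idi1: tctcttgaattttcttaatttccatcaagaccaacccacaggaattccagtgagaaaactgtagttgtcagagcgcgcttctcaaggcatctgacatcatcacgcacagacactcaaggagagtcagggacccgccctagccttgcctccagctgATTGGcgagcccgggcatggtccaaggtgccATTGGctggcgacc
Cyp51: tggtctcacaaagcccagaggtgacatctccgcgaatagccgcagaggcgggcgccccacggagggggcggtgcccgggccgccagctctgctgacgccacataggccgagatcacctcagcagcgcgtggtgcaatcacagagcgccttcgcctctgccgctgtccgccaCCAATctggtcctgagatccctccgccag
Nsdhl: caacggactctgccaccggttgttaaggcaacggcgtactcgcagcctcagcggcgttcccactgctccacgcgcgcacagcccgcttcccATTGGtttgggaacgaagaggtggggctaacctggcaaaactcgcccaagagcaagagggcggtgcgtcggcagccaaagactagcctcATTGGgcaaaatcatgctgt
Msmo1 has TCACNCCA starting 177 bases before its start site and CCAAT at 160, 96 and 55 bases. Srebf2 has TCACNCCA at 162 bases and CCAAT at 135 bases. CCAAT stands at 45 and 14 bases in Idi1, at 29 bases in Cyp51, and at 109 and 20 bases in Nsdhl.

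Values are the authors' normalized reads per region. Reads recovered in the regions came to between 22.2 and 30.4 M (megareads) per library, with the control refed libraries (27.4 to 30.4 M) deeper than the knockout refed libraries (22.3 to 23.6 M). Replicate libraries differed beyond counting noise in all 12 pairs, with a chi-square per degree of freedom of 4.50 to 9.13. Hepatocyte marker regions were high in every library, their summed value running from 39049 to 53395. Differences are on the log2(value + 1) scale, each with its standard error, from a limma fit over all 63686 regions, with p-values adjusted by Benjamini-Hochberg over all of them and 0.05 as the threshold. Where a gene has several regions it is represented by its strongest, the one with the highest mean over the 12 libraries. Coordinates of regions are on mm9. In whole tissue, fewer cells with the mark and less of it per cell cannot be told apart. Member regions were of ordinary kind: 56 lay in introns and 34 between genes, 26 spanned a start site (22.6%; 19.4% of all regions), and the median width was 1899 bases (1556 over all regions).

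H3K27ac was higher in refed than in fasted liver at the start sites of most measured cholesterol synthesis genes. In control liver 18 of the 28 strongest regions rose and 2 fell between fasted and refed, with a median difference of 0.41. Over the strongest regions of all 16313 genes, 21.2% rose and 12.2% fell, with a median of 0.11. The largest rises were at Sqle, Fdps, Acat2, Tm7sf2 and Nsdhl, all genes of enzymes, and the falls were at Acat1 and Npc1. The Tm7sf2 and Nsdhl regions also cover an end or promoter of an adjoining gene, so their signal cannot be assigned to 1 of the genes. In the sterol arm 9 of 12 rose and none fell, in the mevalonate arm 4 of 6 rose and 1 fell, in transport and esterification 4 of 6 rose and 1 fell, and in SREBP-2 regulation 1 of 4 rose. Counted over all 115 regions instead, 32 rose and 18 fell in control liver, where 30.0% of all regions were called (13.2% higher, 16.8% lower). Markers of another liver cell type moved with refeeding: all 5 measured cholangiocyte genes rose in control liver, their summed value going from 1505 to 1792 across the fasted libraries to 2509 to 3029 across the refed ones, and their part in the member changes was not tested. Of the other lists, 3 of 8 hepatocyte and 3 of 8 endothelial marker genes fell in control liver, and 1 of 7 measured stellate genes rose.

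**Figure D1:**
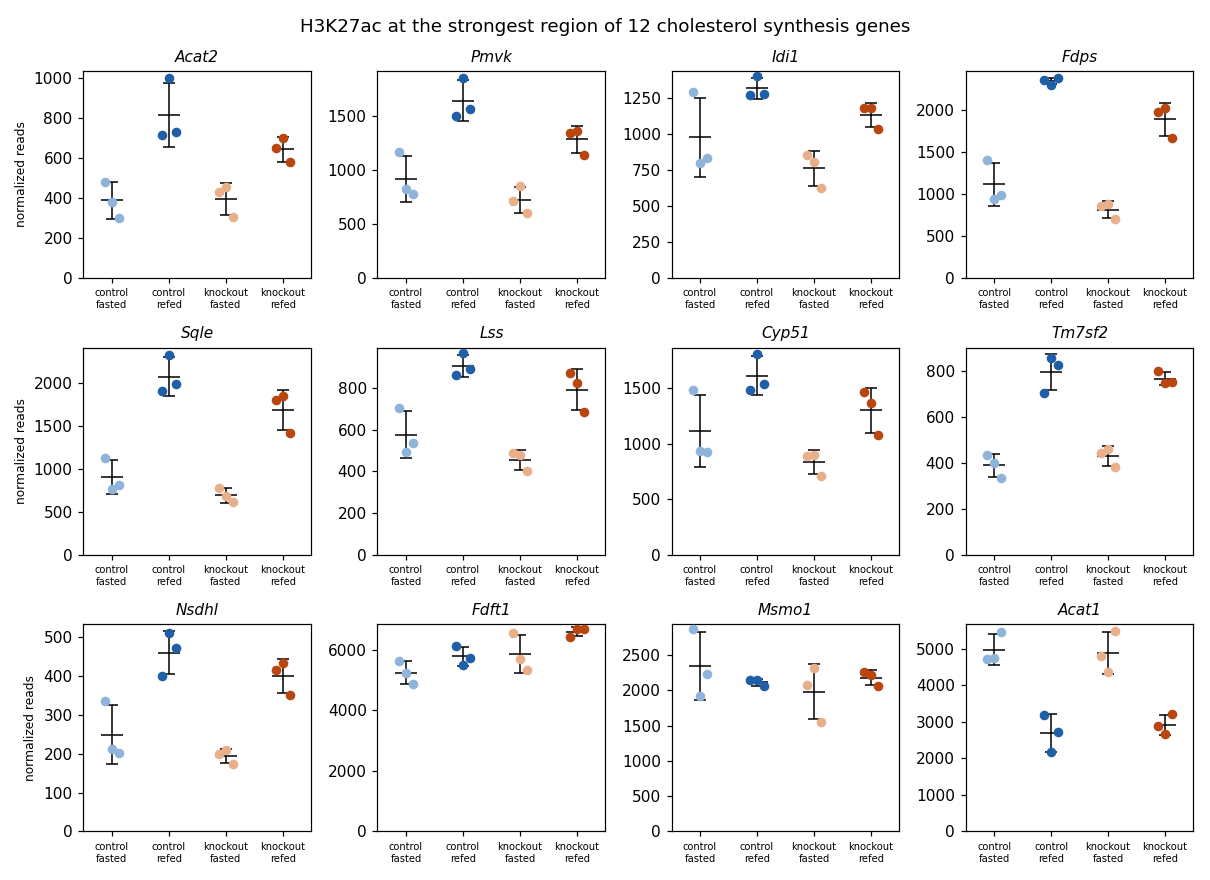
Normalized H3K27ac reads (y axis) in each of the 12 libraries at the strongest region of 12 member genes, 1 panel per gene, by group on the x axis; points are libraries and bars the group mean ± SD (n = 3). The refed points of Sqle, Fdps, Tm7sf2 and Pmvk lie above all fasted points of the same genotype, those of Acat1 lie below, and those of Fdft1 and Msmo1 overlap.

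The mevalonate arm begins with thiolases that join acetyl-CoA units. Acat2, the cytosolic thiolase, had a region over its start site (chr17:13151560-13154595, 3.04 kb, first intron) that held 480.2, 381 and 299.6 normalized reads in the control fasted libraries and 715, 1001 and 731 in the control refed ones. Acat2 read 427, 456 and 304 in knockout fasted and 649, 700.0 and 578 in knockout refed liver. Every refed library exceeded every fasted one of its genotype, and the region rose by 1.08 ± 0.18 (adjusted p = 0.00042) in control and 0.71 ± 0.18 (adjusted p = 0.0106) in knockout liver. Without knockout fasted replicate 3 the knockout difference was 0.54 and its adjusted p 0.0589. Acat1, the mitochondrial thiolase that also serves ketone body metabolism, went the other way in its 16.4 kb region (chr9:53402977-53419414, first intron and start site). Acat1 held 4716, 4758 and 5473 in control fasted and 3203, 2167 and 2736 in control refed liver. In the knockout it held 4799.6, 4363 and 5503 fasted and 2882, 2669 and 3207 refed. All refed values were below all fasted values in both genotypes, a fall with differences of -0.90 ± 0.12 (adjusted p = 6.4e-05) in control and -0.74 ± 0.12 (adjusted p = 0.000497) in knockout liver.

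Mevalonate kinase (Mvk) and phosphomevalonate kinase (Pmvk) phosphorylate mevalonate in turn. The Pmvk promoter region (chr3:89260665-89265018, 4.35 kb) held 1164, 823 and 775 in control fasted and 1507, 1860.3 and 1570.0 in control refed liver. Pmvk held 713, 852 and 603 in knockout fasted and 1348, 1368 and 1141 in knockout refed liver. The groups did not overlap in either genotype, with rises of 0.85 ± 0.15 (adjusted p = 0.000599) and 0.84 ± 0.15 (adjusted p = 0.000991). Both Mvk regions lay between genes, the stronger 18.2 kb from the start site (chr5:114911493-114913391), and the refeeding differences of the stronger region, -0.31 and -0.05, did not pass. Idi1 isomerizes isopentenyl pyrophosphate, and its start-site region (chr13:8883797-8887690, 3.89 kb) held 1295, 802 and 838 in control fasted and 1275, 1403 and 1282 in control refed liver. Idi1 values were 858, 805 and 622 in knockout fasted and 1183, 1185 and 1039 in knockout refed liver. Its groups overlapped in control and not in knockout liver, and the rises were 0.47 ± 0.16 (adjusted p = 0.0354) and 0.59 ± 0.16 (adjusted p = 0.013). The Idi1 call in control liver was lost without any 1 of 5 libraries (control fasted replicate 2 or 3, or any control refed replicate; adjusted p 0.0595 to 0.143) and with edgeR (0.0721), and in knockout liver without knockout fasted replicate 3 (0.45, adjusted p = 0.0702). Fdps makes farnesyl pyrophosphate, the last product shared with other isoprenoids. Its start-site region (chr3:88901857-88909009, 7.15 kb) held 1409, 945 and 992 in control fasted and 2363, 2309 and 2383 in control refed liver. Fdps held 863, 879 and 698 in knockout fasted and 1985, 2029 and 1669.9 in knockout refed liver. Refed values were all above fasted values, with rises of 1.10 ± 0.13 (adjusted p = 2.28e-05) in control and 1.22 ± 0.13 (adjusted p = 1.47e-05) in knockout liver.

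The sterol arm opens with squalene. Fdft1, squalene synthase, lay in a region of 29.4 kb (chr14:63774882-63804264) whose differences of 0.14 in control and 0.18 in knockout liver did not pass. Sqle, squalene epoxidase and a rate-limiting step of the arm, held 1128, 766 and 811 in control fasted and 1904, 2329.8 and 1996 in control refed liver (chr15:59144849-59152504, 7.66 kb over the start site). Sqle in the knockout held 781, 682 and 608 fasted and 1804, 1847 and 1422 refed. It showed the highest rise of the 28 strongest regions in both genotypes, 1.22 ± 0.15 (adjusted p = 1.89e-05) and 1.29 ± 0.15 (adjusted p = 1.9e-05), with no overlap. Lss, lanosterol synthase, held 702, 492 and 536 in control fasted and 861, 966 and 893 in control refed liver (chr10:75992886-75996272, 3.39 kb over the start site). Knockout values of Lss were 487, 479 and 401 fasted and 873, 823 and 683 refed. The groups were apart in both genotypes, and the rises were 0.67 ± 0.13 (adjusted p = 0.0016) and 0.79 ± 0.13 (adjusted p = 0.0006). Cyp51, the lanosterol demethylase, held 1488, 936 and 926 in control fasted and 1488, 1814 and 1538 in control refed liver at its first exon (chr5:4102501-4106251, 3.75 kb; its promoter sequence is shown above). Cyp51 values in the knockout were 893, 904 and 714 fasted and 1467, 1365 and 1078 refed. The highest control fasted and lowest control refed libraries were nearly level, the knockout groups were apart, and the rises were 0.56 ± 0.17 (adjusted p = 0.0192) and 0.63 ± 0.17 (adjusted p = 0.0121). That control call of Cyp51 was lost without control fasted replicate 2 or 3 or control refed replicate 2 (adjusted p 0.0789 to 0.0848). In knockout liver it was lost on leaving out fasted replicate 3 (0.0616) or refed replicate 1 (0.0566).

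Tm7sf2 and Lbr both encode sterol C14 reductases, and Lbr is also a receptor of the inner nuclear membrane. Tm7sf2 held 433, 398 and 334 in control fasted and 704, 854 and 824 in control refed liver (chr19:6066031-6069077, 3.05 kb over the start site, annotated to the 3′ end of the adjoining gene Vps51). Knockout libraries read 442, 461 and 379 fasted and 796, 747 and 749 refed at Tm7sf2. Its rises were 1.03 ± 0.12 (adjusted p = 1.27e-05) and 0.84 ± 0.12 (adjusted p = 0.000127), with no overlap. The Lbr promoter region (chr1:183771026-183773890, 2.87 kb, with a GATA4 peak) held 899, 943 and 832 in control fasted and 1252, 1509 and 1272 in control refed liver. Lbr held 868, 743 and 864 in knockout fasted and 1236, 1151 and 1092 in knockout refed liver. Both genotypes separated, and the rises were 0.59 ± 0.10 (adjusted p = 0.000342) and 0.49 ± 0.10 (adjusted p = 0.00195), so both reductase genes rose. Msmo1, Nsdhl and Hsd17b7 remove the methyl groups at carbon 4. Nsdhl on the X chromosome held 336, 211 and 201 in control fasted and 400.3, 509 and 471 in control refed liver (chrX:70163045-70165628, 2.58 kb over the start site, annotated to the promoter of the adjoining gene Cetn2). The knockout values of Nsdhl were 198, 209 and 173 fasted and 416, 432 and 351 refed. It rose by 0.91 ± 0.18 (adjusted p = 0.00111) and 1.04 ± 0.18 (adjusted p = 0.000579) without overlap. Hsd17b7 held 793, 509 and 502 in control fasted and 942, 919 and 884 in control refed liver (chr1:171897203-171901294, 4.09 kb over the start site, annotated to the promoter of the adjoining gene 3110045C21Rik, with a GATA4 peak). In knockout liver Hsd17b7 held 666, 638 and 499 fasted and 829, 827 and 635 refed. Control groups were apart and knockout groups overlapped: the region rose by 0.64 ± 0.17 (adjusted p = 0.00862) in control liver, and the knockout difference of 0.35 ± 0.17 (adjusted p = 0.145) did not pass. Msmo1, whose promoter sequence is shown above, had an 11.7 kb start-site region (chr8:67205849-67217523) that differed by -0.12 in control and 0.15 in knockout liver, and neither passed.

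Ebp, the sterol isomerase, Sc5d, the C5 desaturase, and Dhcr7, the reductase that yields cholesterol, act last. The Ebp start-site region (chrX:7767174-7771579) differed by 0.27 in control liver, where the groups were apart, and 0.15 in knockout liver, and did not pass. Sc5d lay in a 26.8 kb domain (chr9:42063821-42090643) that held 9166, 7994 and 6605 in control fasted and 11365, 11378 and 10682 in control refed liver. The knockout values of the Sc5d domain were 8487, 8608 and 8136 fasted and 9405, 9958 and 9018 refed. Groups were apart in both genotypes, the rise was 0.50 ± 0.09 (adjusted p = 0.000478) in control liver, and the knockout difference of 0.17 ± 0.09 (adjusted p = 0.178) did not pass. Dhcr7 was read in its second intron (chr7:151014843-151022883, 8.04 kb, with a GATA4 peak), where control libraries held 2196, 1662 and 2030.3 fasted and 2504, 2471 and 2602 refed. Dhcr7 in the knockout held 1756, 1823 and 1541 fasted and 2442, 2445 and 2408 refed. No overlap was seen, with rises of 0.37 ± 0.09 (adjusted p = 0.00688) and 0.51 ± 0.09 (adjusted p = 0.000989).

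**Figure D2:**
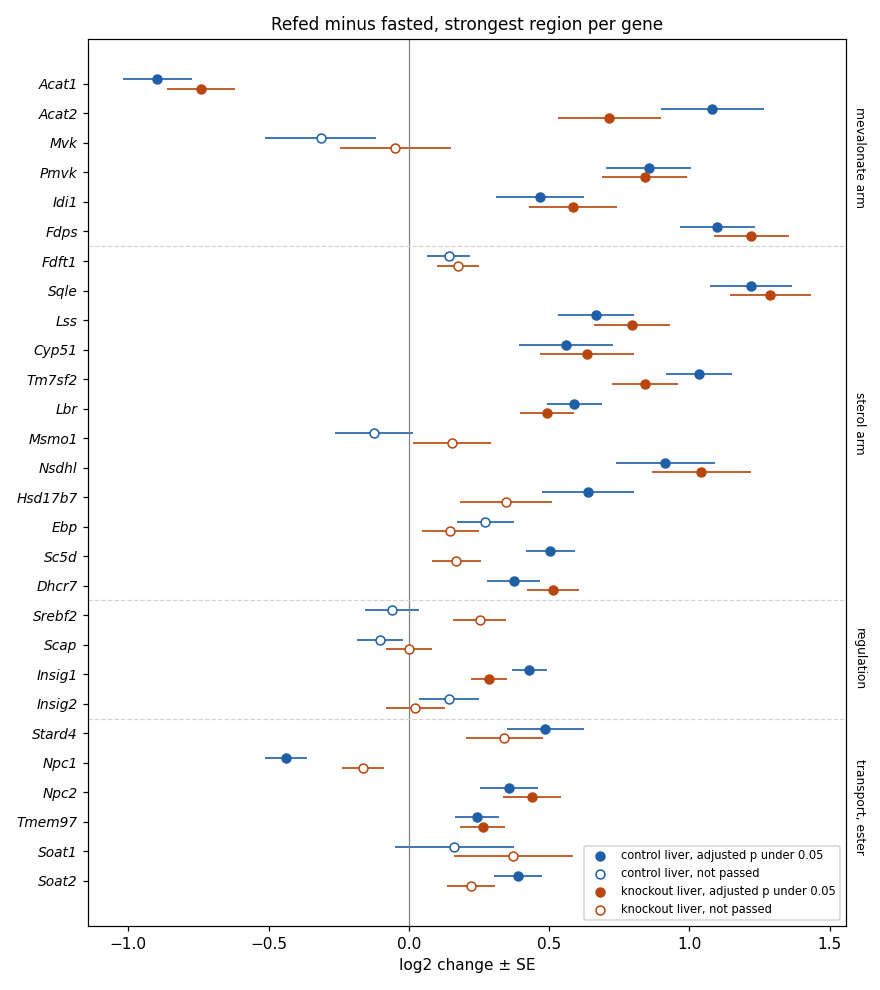
Log2 difference, refed minus fasted (x axis), at the strongest region of each of 28 member genes, grouped by role (y axis), in control and knockout liver; points are limma estimates with bars of 1 SE, filled where adjusted p is under 0.05. Most enzymes of both arms lie right of 0 in both genotypes, Acat1 lies left, and Insig1 is the 1 SREBP-2 regulator with filled points, Srebf2 lying at 0.25 in knockout liver without passing.

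Of the 4 regulators of SREBP-2 processing and supply, only Insig1 passed at its strongest region. The Srebf2 promoter (chr15:81973870-81980315, 6.45 kb; sequence shown above) differed by -0.06 in control liver and by 0.25 ± 0.09 (adjusted p = 0.0645) in knockout liver. Scap differed by -0.10 and 0.00 in its 22.1 kb start-site domain, and Insig2, the INSIG form with a liver-specific transcript, by 0.14 and 0.02 over 12.3 kb. None of those passed. Insig1, itself a target of SREBP-2, had its strongest signal not at the start site but in a 28.4 kb domain 27.7 kb away between genes (chr5:28356021-28384464). That domain held 7986, 7888 and 7693 in control fasted and 10394, 10776 and 10565 in control refed liver. Knockout libraries read 8636, 7278 and 7532 fasted and 9311, 10148 and 9090.0 refed in the Insig1 domain. Refed values lay above fasted ones in both genotypes, with rises of 0.43 ± 0.06 (adjusted p = 0.000126) and 0.29 ± 0.06 (adjusted p = 0.00414). At the Insig1 start site itself the differences were 0.06 in control and 0.09 in knockout liver and did not pass.

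Among transport genes, Npc1 and Npc2 move cholesterol out of lysosomes, Stard4 carries it between membranes, Tmem97 encodes an endoplasmic reticulum protein that binds sterols and NPC1, and Soat1 and Soat2 esterify it. Npc1 fell in control liver: its 26.1 kb domain (chr18:12370451-12396583, with a GATA4 peak) held 11738, 11459.8 and 10565 fasted and 9517, 7486 and 7999 refed. Npc1 held 9366, 8795 and 9019.9 in knockout fasted and 8366, 8188 and 7699 in knockout refed liver. The groups were apart in both genotypes, and the difference was -0.44 ± 0.08 (adjusted p = 0.000449) in control and -0.16 ± 0.08 (adjusted p = 0.128) in knockout liver, where it did not pass. Npc2 went up at its promoter (chr12:86112480-86115598, 3.12 kb, with a GATA4 peak), which held 603, 569 and 656 in control fasted and 677, 869 and 802 in control refed liver. Npc2 held 573, 601 and 537 in knockout fasted and 753, 806 and 758 in knockout refed liver. Its rises were 0.36 ± 0.10 (adjusted p = 0.017) and 0.44 ± 0.10 (adjusted p = 0.00632) without overlap, and the control call was lost without control fasted replicate 2 or control refed replicate 2 or 3 (adjusted p 0.0599 to 0.0811). Stard4 held 2180.5, 1747 and 1354 in control fasted and 2499, 2362 and 2400.4 in control refed liver (chr18:33368607-33375789, 7.18 kb over the start site). The knockout values of Stard4 were 1823, 2076 and 1541 fasted and 2309, 2406 and 2127 refed. Groups were apart in both genotypes, with a rise of 0.49 ± 0.14 (adjusted p = 0.0143) in control liver that was 0.31 (adjusted p = 0.0682) without control fasted replicate 3, and a knockout difference of 0.34 ± 0.14 (adjusted p = 0.0857) that did not pass.

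Tmem97 held 1965, 1705 and 1790.4 in control fasted and 2248, 2084 and 2122 in control refed liver at its first exon (chr11:78360740-78367412, 6.67 kb). Tmem97 in the knockout held 1753, 1641 and 1535 fasted and 2072, 2007 and 1834 refed. The groups did not overlap, but these were the smallest rises called in either genotype, 0.24 ± 0.08 (adjusted p = 0.0302) and 0.26 ± 0.08 (adjusted p = 0.0248), and each was lost without any 1 of 4 of the 6 libraries of its genotype (adjusted p 0.0598 to 0.112) and with edgeR (0.0605 and 0.101). Soat2, the form that esterifies cholesterol in hepatocytes for lipoproteins, held 1639, 1735 and 1577 in control fasted and 2459, 2023 and 2024 in control refed liver at its promoter (chr15:101977428-101984352, 6.92 kb, with a GATA4 peak). The knockout values of Soat2 were 1862, 1665 and 1702 fasted and 1986, 1972 and 2129.6 refed. Refed libraries were higher throughout, with a rise of 0.39 ± 0.09 (adjusted p = 0.00282) in control liver and a knockout difference of 0.22 ± 0.09 (adjusted p = 0.0724) that did not pass. Soat1, the form found in most other cells, had a promoter region only 0.905 kb wide (chr1:158403914-158404818) with differences of 0.16 and 0.37, neither passing. Per kilobase, the mean signal was 90.7 normalized reads at Soat1 and 274 at Soat2, and among the 28 strongest regions it ran from 50.6 at Mvk to 385 at Insig2.

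Knockout liver showed rises at many of the same regions. In knockout liver 14 of the 28 strongest regions rose and 1 fell, with a median difference of 0.34, where 22.6% of the strongest regions of all genes rose, 10.6% fell and the median was 0.13. Over all 115 regions 27 rose and 14 fell (24.7% of all regions called). All 14 strongest regions that rose in knockout liver also rose in control liver, as did the 1 that fell, and over the 115 regions 25 rose in both, 9 fell in both and none was called in opposite directions. The 2 comparisons share no library. As a description, their differences correlated with Pearson r = 0.92 over the 28 strongest regions and 0.87 over the 115, regions of 1 gene sharing a locus. Neither the share of all regions called alike in both genotypes nor their correlation is given here. The agreement is therefore not shown to be particular to these genes. Hsd17b7, Sc5d, Stard4, Npc1 and Soat2 passed in control liver and not in the knockout, but no member region passed the test of the interaction between genotype and feeding. In that test 0.0236% of all regions passed by limma, 11 of 115 members had an unadjusted p under 0.05 (9.54% of all regions), and edgeR passed none (0.0157% of all regions). Of the 5 measured cholangiocyte markers 4 rose in knockout liver as well, their summed value going from 1517 to 2144 fasted to 2661 to 2950 refed. Of the other lists, 4 of 8 hepatocyte and 2 of 8 endothelial marker genes fell there, and 2 of 7 stellate and 1 of 5 Kupffer and macrophage genes rose.

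Most member regions that spanned a start site were called higher in refed control liver. Of 26 such regions 16 rose and 2 fell in control liver (21.6% and 7.15% of all start-site regions), with a median of 0.43 against 0.13 over all of them. In knockout liver 12 rose and 1 fell (24.6% and 6.05%), with a median of 0.34 against 0.17. Without knockout fasted replicate 3 the knockout count was 8 higher and 1 lower, with a median of 0.23. Away from start sites, 16 of 89 member regions rose and 16 fell in control liver (11.1% and 19.1% of all regions of that kind), and 15 rose and 13 fell in the knockout (10.6% and 12.7%). Narrow start-site regions accounted for 15 of the 16 rises in control liver. With a limit of 10 kb, chosen after the values were seen, 15 of 18 narrower regions rose and none fell in control liver, the other 3 (Ebp, Srebf2 and Soat1) not passing, with a median of 0.58. Over all start-site regions under that width 21.2% rose and 5.01% fell, with a median of 0.14. In the knockout 12 of the 18 rose and none fell, against 25.2% and 3.73%. Of the 8 regions of 10 kb or more, 1 rose (Sc5d) and 2 fell (Acat1 and Npc1) in control liver, where 25.3% of all start-site regions that wide rose and 26.8% fell. In the knockout none of the 8 rose and 1 fell, against 18.7% and 27.4%.

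**Figure D3:**
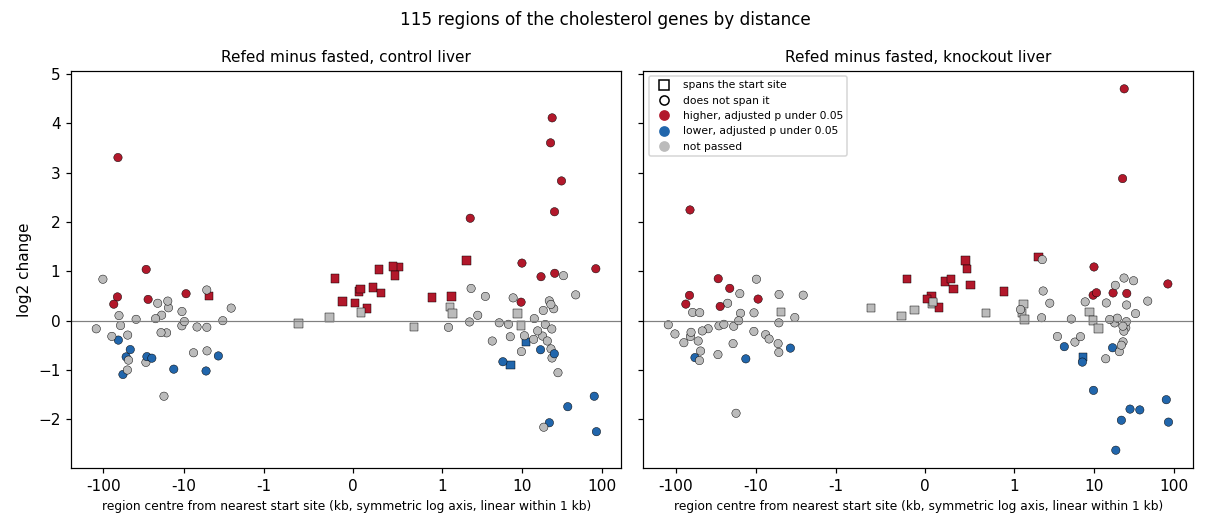
Log2 difference, refed minus fasted (y axis), of all 115 member regions against distance from the annotated start site (x axis, kb, symmetric log scale), in control and knockout panels; squares span the start site, and red and blue points passed the test as higher and lower. Rises cluster near the start site, and farther out regions above and below 0 are mixed.

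Some distant regions of these genes moved against the start site. At Cyp51, whose promoter rose, the 3′ UTR region 22.1 kb away (chr5:4079924-4085345) held 543, 609 and 549.7 in control fasted and 134, 117 and 154 in control refed liver. In the knockout that Cyp51 region held 752, 791 and 877 fasted and 179, 183 and 235 refed. It fell in both genotypes without overlap, with differences of -2.07 ± 0.14 (adjusted p = 8.58e-08) and -2.02 ± 0.14 (adjusted p = 1.84e-07). A farther Cyp51 region, 85.4 kb away inside the Akap9 gene (chr5:4017914-4020654), held 431, 377 and 331 in control fasted and 85.2, 60.3 and 93.2 in control refed liver. Its knockout values were 324, 418 and 395 fasted and 78.7, 76.3 and 119.5 refed. It fell by the most of the regions named here, with differences of -2.25 ± 0.20 (adjusted p = 1.5e-06) and -2.06 ± 0.20 (adjusted p = 5.64e-06). Of the 81 member regions that lay in an annotated transcript, 31 lay in that of another gene, so the gene name HOMER assigns marks the nearest start site and not a shown target. Those 31 include the strongest regions of Tm7sf2, Nsdhl and Hsd17b7. Among the 31, 6 rose and 11 fell in control liver (13.2% and 16.8% of all regions), and 6 rose and 7 fell in the knockout (13.3% and 11.4%).

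Msmo1 showed falls inside its neighbour Klhl2 while its own start site did not change detectably. The Msmo1 region at 57.1 kb (chr8:67267024-67272014) held 741, 694 and 863 in control fasted and 469.7, 322 and 300.2 in control refed liver. In knockout liver this region held 835, 801 and 821 fasted and 459, 488 and 512 refed. Both genotypes fell without overlap, with differences of -1.09 ± 0.14 (adjusted p = 4e-05) and -0.75 ± 0.14 (adjusted p = 0.00135). The Msmo1 region at 13.3 kb (chr8:67223259-67228005) held 1136, 774 and 955 in control fasted and 471, 491 and 466 in control refed liver. Knockout libraries held 985, 1032 and 746 fasted and 529, 468 and 608 refed there. It also fell in both, with differences of -0.99 ± 0.15 (adjusted p = 0.000138) and -0.78 ± 0.15 (adjusted p = 0.0014). At Srebf2, an upstream region 5.24 kb from the start site within Ccdc134 (chr15:81971137-81973779) held 188, 88.2 and 180.2 in control fasted and 71.0, 66.8 and 73.7 in control refed liver. That Srebf2 region held 159.8, 208 and 120.4 in knockout fasted and 133, 87.6 and 129 in knockout refed liver. It fell in control liver without overlap, with a difference of -1.02 ± 0.28 (adjusted p = 0.0108), a call lost without control fasted replicate 1 (-0.83, adjusted p = 0.0545). Its knockout groups overlapped and the difference was -0.47 ± 0.28 (adjusted p = 0.239).

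Insig1, Scap and Sc5d gained signal away from their start sites. The Insig1 region 10.0 kb from the start site (chr5:28406369-28409611) held 76.8, 90.1 and 97.6 in control fasted and 187, 176 and 235 in control refed liver. The Insig1 knockout values there were 148, 132 and 159.5 fasted and 280.1, 331 and 325 refed. No refed library overlapped a fasted one of its genotype, with rises of 1.17 ± 0.16 (adjusted p = 5.46e-05) and 1.09 ± 0.16 (adjusted p = 0.000157). The Scap region 25.8 kb into the gene (chr9:110256806-110266416, 9.61 kb) held 1216, 1291 and 1321 in control fasted and 2492, 2700.0 and 2264 in control refed liver. Scap read 1411, 1098 and 1347 in knockout fasted and 1984, 2236 and 1476 in knockout refed liver there. It rose by 0.96 ± 0.13 (adjusted p = 6.38e-05) and 0.55 ± 0.13 (adjusted p = 0.00661) without overlap, while the Scap start-site domain next to it did not pass. The Sc5d region 17.4 kb from the start site (chr9:42046669-42063369, 16.7 kb) held 848, 790.3 and 768 in control fasted and 1458, 1478 and 1522 in control refed liver. Sc5d in the knockout held 1139, 1189 and 1009 fasted and 1488, 1823 and 1614 refed there. Rises were 0.89 ± 0.09 (adjusted p = 4.4e-06) and 0.56 ± 0.09 (adjusted p = 0.000401), again without overlap.

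Smaller falls were seen at Lss and Tmem97. An Lss region in the fifth intron, 5.80 kb from the start site (chr10:75999290-76001016), held 177, 93.7 and 234 in control fasted and 77.7, 86.3 and 100.3 in control refed liver. Lss held 149.7, 102 and 145 in knockout fasted and 124, 77.4 and 92.6 in knockout refed liver in that intron. The groups overlapped in both genotypes, the control difference of -0.84 ± 0.28 (adjusted p = 0.0366) was lost without control fasted replicate 1 or 3 or control refed replicate 1 or 2 (adjusted p 0.0855 to 0.173, and -0.55 without control fasted replicate 3), and the knockout difference was -0.44 ± 0.28 (adjusted p = 0.288). A Tmem97 region 24.9 kb away in the Nlk gene (chr11:78387983-78390297) held 261, 284 and 344 in control fasted and 191, 167 and 163 in control refed liver. Tmem97 values in the knockout were 143, 241 and 202 fasted and 188, 190.1 and 166 refed there. It fell in control liver, where the groups were apart, with a difference of -0.76 ± 0.18 (adjusted p = 0.00432). The knockout groups overlapped, with a difference of -0.08 ± 0.18 (adjusted p = 0.799).

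**Figure D4:**
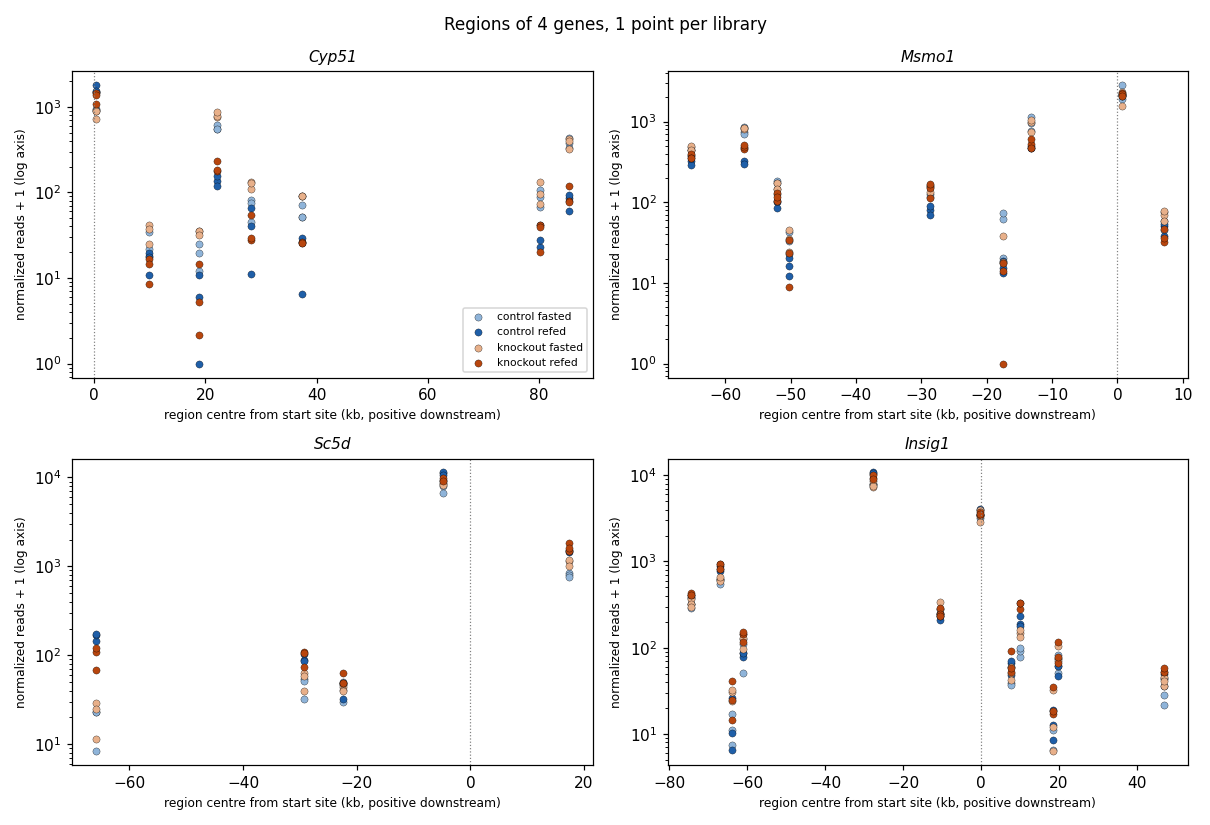
Normalized reads + 1 on a log axis (y) in each library at every region of Cyp51, Msmo1, Sc5d and Insig1, ordered by distance from the start site (x axis, kb) and coloured by group. At Cyp51 the start-site region is higher in refed liver and the regions at 22.1 and 85.4 kb are lower.

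Few member regions differed between knockout and control liver. In fasted liver 1 of 115 regions was higher in the knockout and none lower (0.557% of all regions called), in refed liver 4 were higher and none lower (2.02%), and on the mean of both feeding states 5 were higher and 2 lower (3.88%). By edgeR no member region was called in either single state (0.383% and 0.953% of all regions were). An unadjusted limma p under 0.05 was found for 20 of 115 in fasted liver (13.3% of all regions) and 19 of 115 in refed liver (18.0%). Most start-site differences lay below 0, as they did over all start-site regions. Over the 26 start-site regions the median difference, knockout minus control, was -0.13 in fasted liver (19 of 26 negative), -0.14 in refed liver (22 of 26) and -0.13 on the mean (23 of 26). Over all start-site regions the medians were -0.05, -0.01 and -0.03, with 63.0%, 53.1% and 59.3% negative. With DESeq2 or median-ratio scaling 71.1% to 76.2% of all start-site regions were negative, and 20 to 25 of the 26. In the main fit only Fdps among them passed, on the mean. Of all start-site regions, 0.452% were called in fasted liver, 0.872% in refed liver and 2.67% on the mean. On the mean DESeq2 called 6 of the 26 lower, where it called 2455 of all 63686 regions lower. edgeR and median-ratio scaling called 1 of the 26 lower each. Quantile scaling called 1 higher and 0 lower, where it called 742 and 547 of all regions. In the control fasted group replicate 1 was the highest library at 20 of these 26 regions (76.9%), against 19.2% of all 12381 start-site regions. Without it the fasted median was -0.09 (17 of 26 negative), near the -0.08 (69.9% negative) of all start-site regions in the same fit. On the mean it was then -0.08 (22 of 26 negative), against -0.04 (65.1%).

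**Figure D5:**
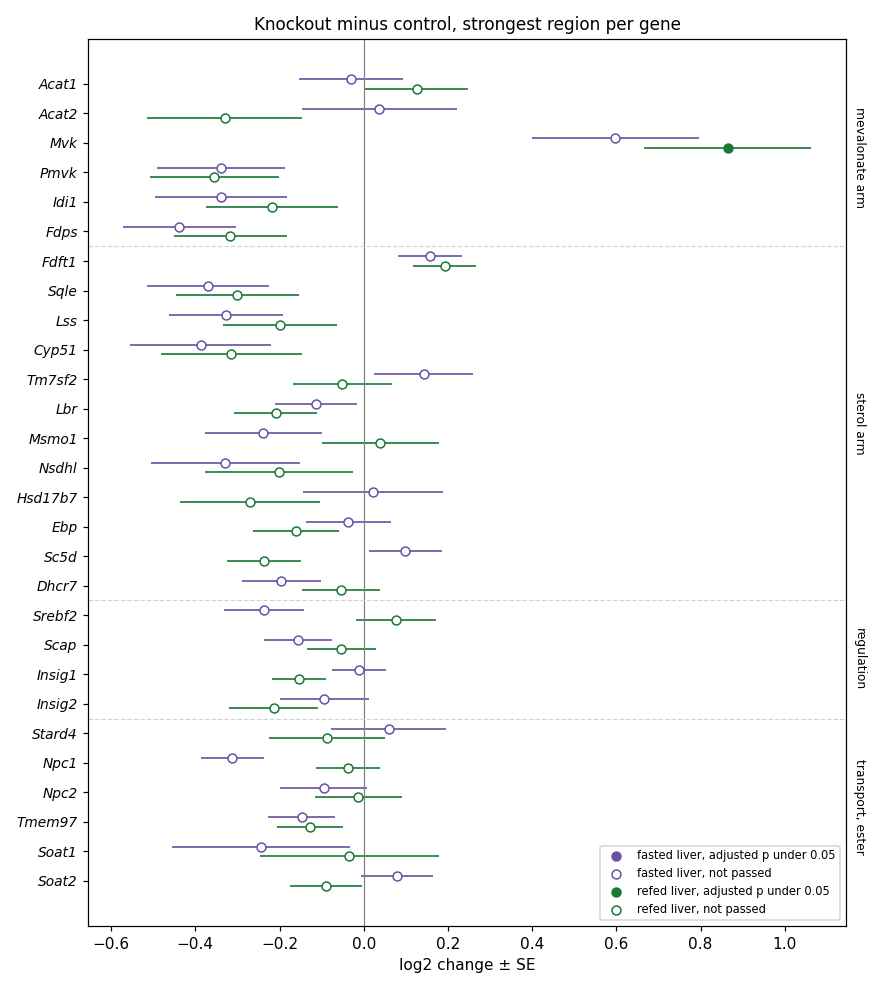
Log2 difference, knockout minus control (x axis), at the strongest region of 28 member genes (y axis), in fasted and refed liver; points are limma estimates with bars of 1 SE, filled where adjusted p is under 0.05. Most points lie slightly left of 0 in both feeding states, and Mvk, whose strongest region lies between genes, is far to the right.

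The Fdps start-site region was lower in the knockout on the mean of both states, with a difference of -0.38 ± 0.09 (adjusted p = 0.0403) and with all knockout values below all control values in each state. The call was lost without any 1 of 10 libraries (adjusted p 0.0507 to 0.0902). The other lower region lay 5.13 kb from the Tmem97 start site and carried a GATA4 peak (chr11:78368291-78370440). It held 198, 211 and 222 in control fasted, 129.6, 168 and 126 in knockout fasted, 193, 194 and 186 in control refed and 159.7, 106 and 147 in knockout refed liver. Knockout values were below control values in both states, with a mean difference of -0.54 ± 0.12 (adjusted p = 0.0259) that was lost without knockout fasted replicate 1 (0.0656) or 3 (0.0532).

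The Mvk, Cyp51, Insig1, Sc5d and Msmo1 regions higher in the knockout all lay away from start sites, and none carried a GATA4 peak. Most regions of the whole series called higher on the mean were of that kind. Of those 1906 regions, 1784 did not span a start site and 1815 had no GATA4 peak. Most regions of any kind shared these traits: of all 63686, 51305 did not span a start site and 58394 had no GATA4 peak. The Mvk region described above held 85.1, 66.2 and 89.5 in control fasted and 124, 127 and 113 in knockout fasted liver. In refed liver Mvk held 64.4, 57.5 and 70.2 in control and 123, 91.1 and 143 in knockout libraries. Knockout values exceeded control values in both states, with differences of 0.86 ± 0.20 (adjusted p = 0.0388) in refed liver and 0.73 ± 0.14 (adjusted p = 0.0141) on the mean. The Insig1 region at 10.0 kb and the Cyp51 region at 22.1 kb, whose values are given above, were likewise separated in both states. The Insig1 difference was 0.65 ± 0.16 (adjusted p = 0.0459) in refed liver and 0.69 ± 0.11 (adjusted p = 0.00591) on the mean. At Cyp51 the difference was 0.56 ± 0.14 (adjusted p = 0.0489) in refed liver and 0.53 ± 0.10 (adjusted p = 0.0111) on the mean. For Mvk, Insig1 and Cyp51 the call on the mean held without each library in turn. An Msmo1 region 28.7 kb from the start site in Klhl2 (chr8:67240054-67242046) held 125, 117 and 155 in control fasted and 159, 165 and 134 in knockout fasted liver. In refed liver that Msmo1 region held 80.2, 67.7 and 89.7 in control and 112, 148 and 169 in knockout libraries. The genotypes overlapped when fasted and were apart when refed, with differences of 0.83 ± 0.19 (adjusted p = 0.0371) in refed liver and 0.52 ± 0.13 (adjusted p = 0.0433) on the mean. The Sc5d region at 17.4 kb was higher by 0.47 ± 0.09 (adjusted p = 0.0328) in fasted liver, where the groups were apart, and by 0.30 ± 0.06 (adjusted p = 0.0206) on the mean.

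These genotype calls were fragile in a single feeding state. All 5 single-state calls were lost with edgeR and with median-ratio scaling, and each was also lost on leaving out any 1 of several libraries. The adjusted p ranged from 0.0535 to 0.17 without any 1 of 11 libraries for Cyp51 in refed liver, from 0.0538 to 0.141 without any 1 of 9 for Insig1, from 0.0518 to 0.145 without any 1 of 8 for Mvk, from 0.0503 to 0.136 without any 1 of 6 for Msmo1, and from 0.0513 to 0.145 without any 1 of 5 for Sc5d in fasted liver. On the mean, Msmo1 was lost without any 1 of 10 libraries (0.05 to 0.0987) and Sc5d without knockout fasted replicate 1 (0.0536). No marker gene of non-hepatocyte liver cells was called between genotypes (29 of 40 listed genes had a region). On the mean 2 of 8 hepatocyte genes were lower in the knockout, where 3.75% of the strongest regions of all genes were called. Some summed marker values were still lower in every knockout library. Endothelial sums were 8311 to 9149 in control and 7233 to 7969 in knockout fasted liver. Stellate sums were 1103 to 1332 and 1029 to 1092 fasted, and 1427 to 1477 and 1152 to 1325 refed. Hepatocyte sums were apart in refed liver only, and the other sums overlapped. The part of these shifts in the member differences was not tested.

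The deposited data listed a GATA4 peak interval for 15 of the 115 regions (13.0%; 8.31% of all regions), and its overlap was not checked here. Such a peak was listed for the strongest region of Acat1, Lbr, Hsd17b7, Dhcr7, Npc1, Npc2 and Soat2. Of the 15, 5 rose and 2 fell with refeeding in control liver (15.4% and 14.8% of all GATA4-peak regions), and 3 rose and 1 fell in the knockout (14.4% and 12.7%). On the mean of both states 1 of 15, near Tmem97, was lower in the knockout and none higher, where 3.70% of all GATA4-peak regions were lower and 1.72% higher.

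In the authors' deposited table of adjusted p-values, 49 of the 115 regions were under 0.05 for fasted against refed control liver (32.0% of all regions). Of these, 42 were among the 50 called here. The strongest regions of Idi1, Cyp51, Dhcr7, Npc1, Stard4 and Tmem97, called here in control liver, were not among those 49. The authors' deposited table gave 4 member regions for genotype in fasted liver (3.17% of all regions), 9 in refed liver (6.59%), none for genotype overall (0.473%) and none for the interaction (1.53%). None of those 4 and 2 of those 9 were called here, and none of the 7 regions called here on the mean was under 0.05 for genotype overall in the authors' deposited table.

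Another 30 genes that supply, use or regulate the same pathway were also read by their strongest regions: 11 of them rose and 4 fell in control liver, and 6 rose and 4 fell in the knockout, against the shares of all genes given above. Rdh11, a retinol dehydrogenase, had the smallest adjusted p and held 359, 229 and 248 in control fasted and 1137, 1169 and 1114 in control refed liver. Rdh11 held 231, 239 and 174 in knockout fasted and 927, 954 and 704 in knockout refed liver. It rose by 2.06 ± 0.17 (adjusted p = 6.73e-07) and 2.00 ± 0.17 (adjusted p = 1.52e-06), more than any of the 28 members at its strongest region. Acss2, which makes cytosolic acetyl-CoA from acetate, held 1046, 776 and 825 in control fasted and 2368, 2505 and 2295 in control refed liver. Acss2 in the knockout held 829, 821 and 716 fasted and 2091, 2248 and 1576 refed. Groups were apart, with rises of 1.45 ± 0.13 (adjusted p = 1.46e-06) and 1.31 ± 0.13 (adjusted p = 5.97e-06). Acly, which makes acetyl-CoA from citrate, held 2744, 2829 and 2543 in control fasted and 4400.1, 4301 and 4364 in control refed liver. Acly in the knockout held 2675, 2713 and 2464 fasted and 4367, 4278 and 4907 refed. It rose by 0.69 ± 0.07 (adjusted p = 3.78e-06) and 0.79 ± 0.07 (adjusted p = 2.12e-06). Aacs, which activates acetoacetate, held 2005, 1818 and 1846 in control fasted and 3274, 3385 and 3339 in control refed liver. Aacs in the knockout held 2072, 2175 and 1516 fasted and 3112, 2905 and 3409 refed, and it rose by 0.82 ± 0.11 (adjusted p = 5.05e-05) and 0.72 ± 0.11 (adjusted p = 0.000231).

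Pdss1, which extends farnesyl units for ubiquinone, held 383, 381 and 381 in control fasted and 554, 674 and 675 in control refed liver. Knockout values of Pdss1 were 397, 372 and 387 fasted and 652, 541 and 579 refed, and it rose by 0.72 ± 0.11 (adjusted p = 0.000124) and 0.61 ± 0.11 (adjusted p = 0.000747). Stard5, a sterol transfer protein of the Stard4 family, went down: it held 3495, 3171 and 3443 in control fasted and 2545, 2417.04 and 2520.2 in control refed liver. Stard5 in the knockout held 2861, 2776 and 2679 fasted and 2339, 2390.1 and 2218 refed. Its refeeding differences were -0.43 ± 0.06 (adjusted p = 0.00012) and -0.26 ± 0.06 (adjusted p = 0.00784), and it was the 1 gene of the 30 called for genotype on the mean of both states, with a difference of -0.19 ± 0.05 (adjusted p = 0.0295) that was lost without any 1 of 9 libraries (0.0504 to 0.0686). Lipa, the lysosomal cholesterol esterase, also fell in control liver, with a difference of -0.32 ± 0.07 (adjusted p = 0.00197). Mylip, a ligase that degrades lipoprotein receptors, differed by -0.27 ± 0.09 (adjusted p = 0.0381), lost without any 1 of 4 libraries (0.0608 to 0.147). Of the factors that bind the promoter motifs, the NF-Y subunit Nfyb rose in control liver by 0.46 ± 0.10 (adjusted p = 0.00194). Nfyc rose by 0.22 ± 0.07 (adjusted p = 0.0314), lost without any 1 of 4 libraries (0.0651 to 0.12), while Nfya at 0.05 and Sp1 at -0.08 did not pass.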

How the data were processed

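The authors deposited 1 table of H3K27ac regions with their gene names and 12 columns of normalized counts, used here as signal. In the deposited signal every value was a whole read number divided by 1 factor per library (100% of values within 0.01 of a whole read), with equal totals over the regions. Per the submitters' processing notes the build was mm9 and the tools included Bowtie2, MACS2, HOMER, DiffBind and edgeR, besides the utilities FastQC, SAMtools, Trim Galore, deepTools and bedtools, with no role, order or version given. HOMER made the annotation, per the file headers. The deposited p-value columns and GATA4 peak intervals were used only where named, and the libraries behind those peaks and 12 input libraries were not used here.

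Members and gene lists were chosen with earlier results of these data known. limma 3.58.1 (R 4.3.3, trended variance) was fitted to log2(value + 1) of all 63686 regions in 4 groups of 3. Contrasts were refed minus fasted in each genotype, knockout minus control in each feeding state and on their mean, and the interaction, with Benjamini-Hochberg adjustment at 0.05. Alternatives were pseudocounts of 5 and 0.5, the lowest 25% of regions left out, median-ratio and quantile scaling, edgeR 4.0.16 and DESeq2 1.42.0 on the recovered reads, fits of only 2 groups, each library left out, and other regions per gene. edgeR called 30 of the 115 member regions higher and 18 lower with refeeding in control liver (14.0% and 16.4% of all regions). In the knockout edgeR called 24 higher and 15 lower (12.1% and 12.2%). Both limma and edgeR were also run on simulated reads, whose spread was set and not fitted to these libraries. The outcome is not given here and does not bear on the calls. Every member is named by its strongest region. Values per library are given for strongest regions called with refeeding, for regions called between genotypes, for the 10 other regions with the greatest refeeding change at or above the median signal, and for 6 other pathway genes with the smallest adjusted p. Lipa, Mylip, Nfya, Nfyb, Nfyc and Sp1 were named after their values were seen. pandas 2.3.3, numpy 2.4.6 and matplotlib 3.10.9 made the tables and figures. Promoter windows came from RefSeq.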

Additional observations from a re-analysis of the deposited data

Results flagged for a closer look

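One member region was flagged because the knockout difference had opposite signs in the 2 feeding states with no overlap of libraries. The share of all regions with this pattern is not given here, so the region is not shown to be unusual. It lies in the second intron of Npc2, 10.8 kb from the start site (chr12:86102254-86104320). In fasted liver the control libraries held 105, 110.3 and 148 normalized reads and the knockout libraries 90.4, 100.2 and 88.7, so every knockout value was lower, with a difference of -0.362 on the log2 scale. In refed liver the control libraries held 97.8, 110.4 and 83.5 and the knockout libraries 145, 139 and 130.3, so every knockout value was higher, with a difference of 0.51. The limma test of the difference between states gave 0.871 with an adjusted p of 0.251 and did not pass.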

How the results depend on the processing

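Of 129 called results for single regions and 20 alternatives, 2563 values could be compared: 2308 kept direction and call, 255 kept direction without the call, and none reversed. Only results called in the main fit were counted, and the alternatives reuse its libraries, so the tally could hardly show a reversal. Calls made only by an alternative are not in it. The median refeeding difference in control liver was 0.211 when each gene was averaged over its regions, against 0.41 at the strongest region. Knockout-higher counts in fasted liver (1) were 3 with DESeq2, 2 with a pseudocount of 5 or the lowest 25% left out, and 0 with edgeR, median-ratio scaling or 2 groups; knockout-lower (0) were 2 with DESeq2. In refed liver knockout-higher (4) were 0 with edgeR, median-ratio scaling, quantile scaling or 2 groups, and knockout-lower (0) were 3 with DESeq2. On the mean, knockout-higher (5) were 3 with edgeR and median-ratio scaling, and knockout-lower (2) were 7 with DESeq2 and 1 with quantile scaling. Over all regions, knockout-higher counts in fasted liver were 199 in the main fit, 610 with DESeq2 and 116 with edgeR. In refed liver they were 1100, 437 with edgeR and 475 with median-ratio scaling. Knockout-lower counts with DESeq2 went from 156 to 568 fasted and from 189 to 1168 refed. On the mean, higher counts went from 1906 to 1284 with edgeR and 1092 with median-ratio scaling. Lower counts there went from 567 to 2455 with DESeq2 and 547 with quantile scaling. The cause of these shifts was not tested. Over all regions called in refed liver, 85.3% were higher in the knockout, 67.7% with median-ratio scaling (on the mean, 77.1% and 51.03%). The median of all regions moved from 0.10 to -0.02 with quantile scaling in that contrast. The median of the 26 start-site regions on the mean of both states was negative throughout, from -0.19 with DESeq2 to -0.08 without control fasted replicate 1.

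Leaving out 1 library at a time, refeeding in control liver gave 26 to 34 regions higher and 15 to 19 lower (median 0.376 to 0.45), and in knockout liver 17 to 29 higher and 10 to 15 lower (median 0.245 to 0.393), the 17 without knockout fasted replicate 3. Knockout-higher counts were 0 to 1 fasted, 0 to 3 refed and 3 to 5 on the mean, knockout-lower counts were 0 to 1, 0 to 0 and 0 to 2, and the interaction had 0. Among the 30 other pathway genes 9 to 12 rose and 3 to 5 fell in control liver, and 6 to 7 rose and 3 to 4 fell in the knockout. No paired analysis was possible because the labels give no replicate number shared across groups. With 3 libraries a group, small differences at weak regions are the least certain.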
